A study of Mus musculus with 24 samples.

Results

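The genes described here are 40 mouse genes of mitosis and the spindle, taken by gene symbol from a count table of 19895 entries. Of these 40 genes, 35 had a row of their own, and all 35 passed the filter that required at least 1 read in every library. The other 5 shared a row with a neighbouring or overlapping gene, so their reads could not be separated. These were Ccna2 with Exosc9, Foxm1 with 4933413G19Rik, Nusap1 with Oip5, Cdc20 with Elovl1, and Kif20a with Brd8 and Cdc23. The counts below are over the 35 members with their own row, tested among 11438 genes.

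The study asked which mRNAs depend on the RNA helicase eIF4A for translation in normal and malignant pancreatic duct cells. Normal (N) organoids were grown from ducts of wild-type C57Bl/6J mice, and tumour (KP) organoids from pancreatic tumours of mice in which a Pdx1-driven Cre had switched on oncogenic alleles, p53 R172H among them. Pdx1 is active in the whole pancreatic epithelium from early development, so the alleles were not confined to ducts. Each allele was heterozygous in the mice as bred, and the study does not state whether the organoids kept the wild-type copies. Each type received 10 nM CR-31, a synthetic rocaglate that inhibits eIF4A, or its DMSO vehicle for 1 h, and cycloheximide was added shortly before lysis in every group. All cultures were grown in Matrigel in medium from which EGF and N-acetylcysteine had been left out. Every lysate gave a library of total mRNA and a library of polysome-associated mRNA, the pool bound by 3 or more ribosomes, which makes 24 libraries in 8 groups of 3. The labels do not say whether the 3 replicates were separate mice, lines or cultures, so the p-values below measure the spread between these samples, which may be technical.

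A cell enters mitosis when cyclin-bound Cdk1 becomes active. Polo-like and Aurora kinases then build the spindle, and the chromosomal passenger complex and the spindle checkpoint correct and count the attachments of kinetochores to microtubules. Once the checkpoint is satisfied, the anaphase-promoting complex with Cdc20 marks securin and cyclin B for destruction, separase opens the cohesin rings, and the central spindle directs the cleavage furrow. Most of these genes are transcribed in late S and G2 phase from a shared programme in which MuvB complexes with B-Myb and FoxM1 act on promoters that carry a cell cycle genes homology region (CHR), often beside CCAAT boxes bound by NF-Y. In a mixed culture their mRNA level therefore follows how many cells are cycling. In these bulk libraries, more cells in cycle and more mRNA per cycling cell cannot be told apart.

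Between 47308461 and 267463046 reads were counted per library. The summed level of 8 duct markers lay between 6067 and 13710 CPM (counts scaled to the library's total over the tested genes) and none of these markers was at 0. Summed endocrine markers reached at most 0.19 CPM and endothelial markers 0.443 CPM, and acinar markers lay between 3.29 and 5.39 CPM. Fibroblast markers were at or below 2.20 CPM. Leukocyte markers lay between 16.4 and 34.4 CPM in N and between 3.69 and 5.96 CPM in KP, except for 53.5 CPM in vehicle polysome replicate 3 of KP. The libraries of an organoid type carried 2 codes that may stand for sequencing lanes or runs, called lanes here. Each lane held vehicle and CR-31 libraries, but no lane held both types, so lane and organoid type cannot be told apart.

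KP organoids held more mRNA of most of the mitosis genes than N organoids in both pools and under both treatments, and no member was called lower in any of the 4 comparisons. A gene was called at an adjusted p under 0.25, the threshold of the study, in edgeR's quasi-likelihood test with Benjamini-Hochberg adjustment over all 11438 genes. In the polysome-associated mRNA of vehicle-treated organoids 24 of 35 members were called higher, against 20.9% of all genes tested. The members' median log2 fold change was 1.20, a fold of 2.30, and that of all genes was -0.03. In total mRNA 32 of 35 were called higher, against 13.1% of all genes, with a median of 1.44. With CR-31, 32 members were called higher in polysome-associated mRNA (11.2% of all genes, median 1.41) and 29 in total mRNA (18.9% of all genes, median 1.29). The count in CR-31 polysome-associated mRNA rested on KP replicate 1: it was 17 without the CR-31 lysate of that number and 14 without both of its lysates, and the share of all genes called higher fell as well, to 4.22% and 3.3%. DESeq2 called 25, 32, 34 and 30 members higher in the same order, beside 20.6%, 13.8%, 12.2% and 20.2% of all genes. Markers of cell types also differed between the organoids: in vehicle polysome-associated mRNA 5 of 8 duct markers were called lower in KP and 1 higher, and the 2 leukocyte markers and the 1 fibroblast marker that could be tested were called lower. Their part in the result for the mitosis genes was not tested.

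**Figure D1:**
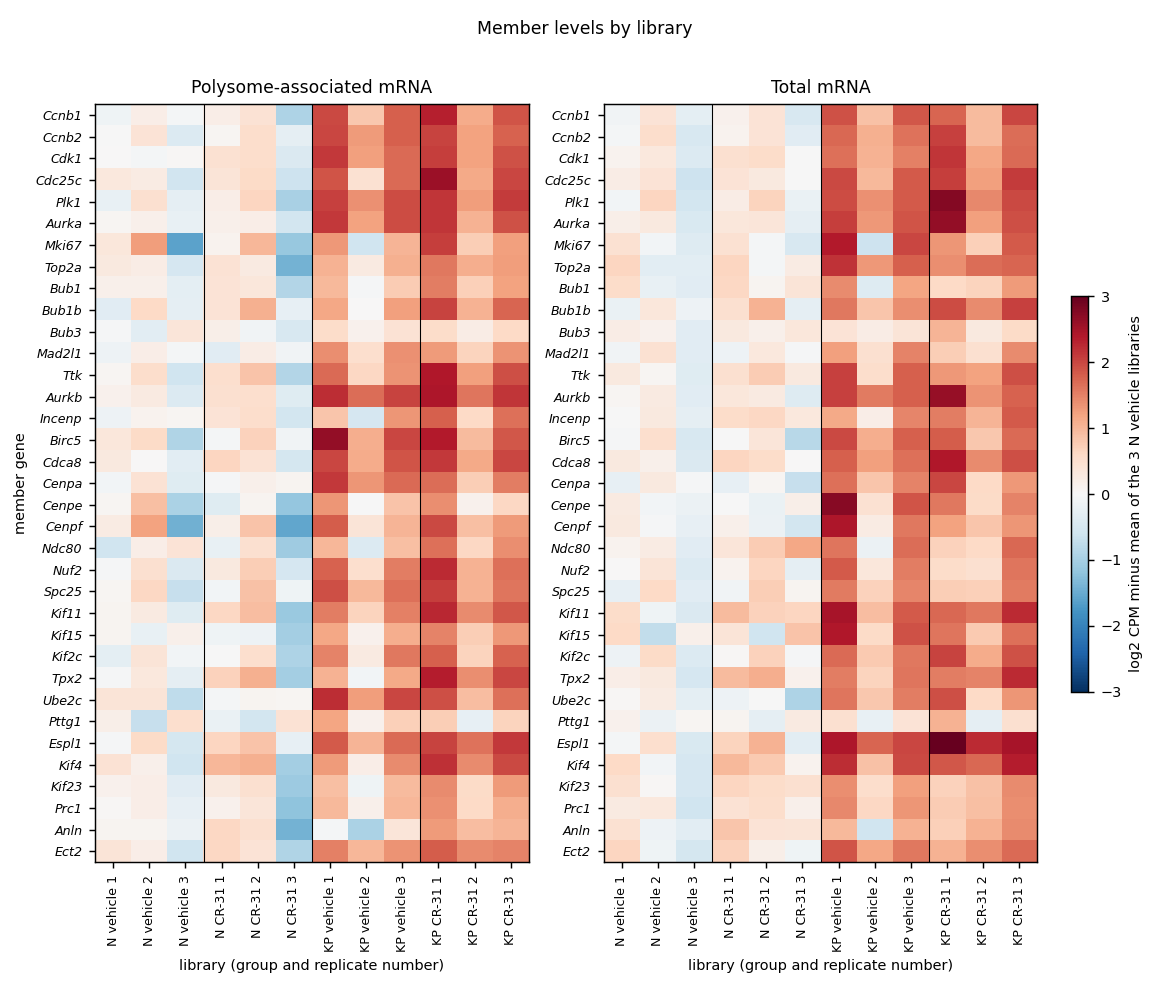
Each row is a member and each column a library, and the colour is the log2 CPM minus the mean of the 3 N vehicle libraries of the same mRNA pool. Most rows turn red in the KP columns, and within KP the columns of replicate 2 are the palest in most rows.

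All 6 tested genes of mitotic entry were called higher in KP, in polysome-associated and in total mRNA. Ccnb1, which encodes cyclin B1, had 31.8, 40.1 and 33.4 CPM in the N vehicle polysome libraries and 137, 61.0 and 122 CPM in the KP ones. The lowest KP library of Ccnb1 thus lay above the highest N library, and the log2 fold change was 1.60 ± 0.40 (SE, n = 3 per group, edgeR adjusted p = 0.0235). Cdk1, the catalytic partner of cyclin B, had 43.5, 42 and 44.8 CPM in N and 190, 102 and 141 CPM in KP. Its N libraries were nearly level, and its log2 fold change was 1.73 ± 0.32 (edgeR adjusted p = 0.00668).

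Plk1, the polo-like kinase that drives centrosome maturation and entry, had 17.9, 28.9 and 17.3 CPM in N and 86.2, 54.0 and 80.4 CPM in KP. Aurka, the Aurora kinase of the spindle poles, had 20.8, 22.1 and 17.1 CPM in N and 87.1, 45.8 and 77.0 CPM in KP. The groups did not overlap for either kinase, with log2 fold changes of 1.78 ± 0.40 for Plk1 and 1.81 ± 0.33 for Aurka (edgeR adjusted p = 0.015 and 0.00695). Ccnb2, the second B-type cyclin, rose by 1.68 ± 0.31. Cdc25c, the phosphatase that activates Cdk1, rose by 1.42 ± 0.48 and had the narrowest gap of the 6 between the groups, with 6.12 CPM in KP replicate 2 and 5.59 CPM in N replicate 1.

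In total mRNA the same 6 genes were 1.4 ± 0.29 (Cdk1) to 1.75 ± 0.36 (Aurka) higher on the log2 scale. Foxm1, the transcription factor of the programme, could be read in its shared row alone. That row had 70.5, 50.3 and 8.76 CPM in the N vehicle polysome libraries and 75.8, 48.8 and 76.8 CPM in the KP ones. The groups overlapped and N replicate 3 was far below the others. With shared rows tested as well, its log2 fold change was 0.62 with an edgeR adjusted p of 0.5, and 0.79 in total mRNA with an adjusted p of 0.4. In the same fit the rows with Ccna2 (1.22), Nusap1 (1.06) and Cdc20 (1.37) were called higher in polysome-associated mRNA (adjusted p = 0.0104, 0.0684 and 0.00445). The row with Kif20a had 0.41 (adjusted p = 0.273) in polysome-associated mRNA and was called higher in total mRNA at 0.79 (adjusted p = 0.0249).

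Aurkb and Birc5 of the chromosomal passenger complex had the largest differences in vehicle polysome-associated mRNA. Aurkb, its kinase, had 14.2, 15.8 and 9.87 CPM in the N vehicle polysome libraries and 60.3, 41.7 and 52.8 CPM in the KP ones. Each KP library was above each N library, and the log2 fold change of 1.96 ± 0.31 was the highest of the 35 in this comparison (edgeR adjusted p = 0.00379). Birc5, which encodes survivin and holds the complex on the centromere, had 32.4, 38.4 and 13.7 CPM in N and 160, 54.9 and 103 CPM in KP, a log2 fold change of 1.91 ± 0.49 (adjusted p = 0.0247). Cdca8, which encodes borealin, rose by 1.69 ± 0.36. The scaffold Incenp had 0.73 ± 0.44 (adjusted p = 0.267) and was not called in polysome-associated mRNA, but was called in total mRNA at 1.01 ± 0.31.

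The chromosome genes Mki67 and Top2a, often used to mark proliferation, gave different values in the 2 pools. Mki67, which encodes the Ki-67 protein of the chromosome surface, had 26.4, 49.5 and 6.80 CPM in the N vehicle polysome libraries and 51.0, 13.8 and 41.7 CPM in the KP ones. The groups overlapped widely, and the log2 fold change of 0.36 ± 0.70 was not called (edgeR adjusted p = 0.759). It ran from -0.10 to 1.09 when a lysate or a replicate number was left out. In total mRNA Mki67 had 8.47, 5.84 and 4.70 CPM in N and 32.1, 4.03 and 24.8 CPM in KP, a log2 fold change of 1.68 ± 0.60 that was called (adjusted p = 0.104) although KP replicate 2 lay below every N library. Top2a, the topoisomerase that untangles sister chromatids, had 48.3, 46 and 28 CPM in N and 81.7, 48.1 and 82.9 CPM in KP in the polysome pool, where KP replicate 2 lay within the N range, a log2 fold change of 0.80 ± 0.41 (adjusted p = 0.197). In total mRNA its N libraries had 24.6, 12.5 and 12.6 CPM and its KP libraries 70.7, 38.5 and 54.4 CPM, with no overlap and a log2 fold change of 1.72 ± 0.32 (adjusted p = 0.00939). The test of the difference between the pools, as translational efficiency, gave -0.75 ± 0.61 for Mki67 (edgeR adjusted p = 0.612) and -1.0 ± 0.42 for Top2a (adjusted p = 0.433), and neither was called.

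Of the spindle checkpoint genes, Bub1b, Mad2l1 and Ttk were called higher in polysome-associated mRNA and Bub1 was added in total mRNA. Mad2l1, which with Bub1b forms the inhibitor of the anaphase-promoting complex, rose by 1.14 ± 0.28, and Ttk, the kinase that starts checkpoint signalling, by 1.21 ± 0.48. Bub3, a partner of Bub1 that is also present outside mitosis, had 0.35 ± 0.24 in the polysome pool and 0.32 ± 0.21 in total mRNA, and was called in neither. Of the 6 centromere and kinetochore genes 3 were called in polysome-associated mRNA, namely Cenpa, the histone of the centromere (1.71 ± 0.30), Nuf2 (1.31 ± 0.43) and Spc25 (1.48 ± 0.41) of the Ndc80 complex. Ndc80 itself (0.56), the kinetochore motor Cenpe (0.63) and Cenpf (0.83) were not called there, and all 6 were called in total mRNA.

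Among the motors and microtubule-binding proteins, Kif11, which pushes the spindle poles apart, had 12.6, 14.3 and 9.30 CPM in the N vehicle polysome libraries and 34.5, 18.9 and 33.6 CPM in the KP ones. It was called at 1.26 ± 0.44, as were Kif15 and the microtubule depolymerase Kif2c, while Tpx2, the activator of Aurora A, was not (0.77 ± 0.47, edgeR adjusted p = 0.28). In total mRNA all 4 were called, Kif11 with 1.82 ± 0.39. Among the genes of anaphase, Ube2c, the ubiquitin-conjugating enzyme of the anaphase-promoting complex, had 67.4, 68.1 and 30.6 CPM in N and 242, 123 and 210 CPM in KP (1.79 ± 0.36, adjusted p = 0.00992). Espl1, which encodes separase, had the largest difference of any member in total mRNA. Its N libraries had 2.99, 4.41 and 2.27 CPM and its KP libraries 16.8, 10.5 and 12.4 CPM, a log2 fold change of 2.03 ± 0.43 (adjusted p = 0.0155). Pttg1, which encodes securin, the inhibitor of separase, was called in none of the 4 comparisons, with 0.65 ± 0.39 in vehicle polysome-associated mRNA and 0.24 ± 0.31 in vehicle total mRNA.

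With all libraries in the fit, the cytokinesis genes held the single member below 0 in vehicle polysome-associated mRNA. Anln, which encodes the actin-binding anillin of the cleavage furrow, had 28.2, 28.4 and 23.9 CPM in the N vehicle polysome libraries and 25.7, 13.8 and 34.4 CPM in the KP ones. The groups overlapped, and the log2 fold change was -0.12 ± 0.44 (edgeR adjusted p = 0.876). It ran from -0.46 to 0.17 when a lysate or a replicate number was left out. In CR-31 polysome-associated mRNA Anln was called higher in KP, at 0.95 ± 0.44 (adjusted p = 0.225). Ect2, the exchange factor that activates RhoA at the cell equator, rose by 1.24 ± 0.36 in vehicle polysome-associated mRNA, and Kif4 and Prc1 of the central spindle by 0.99 ± 0.50 and 0.75 ± 0.37. Kif23, the motor of centralspindlin, was called in total mRNA (1.04 ± 0.30) and not in polysome-associated mRNA (0.63 ± 0.40).

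**Figure D2:**
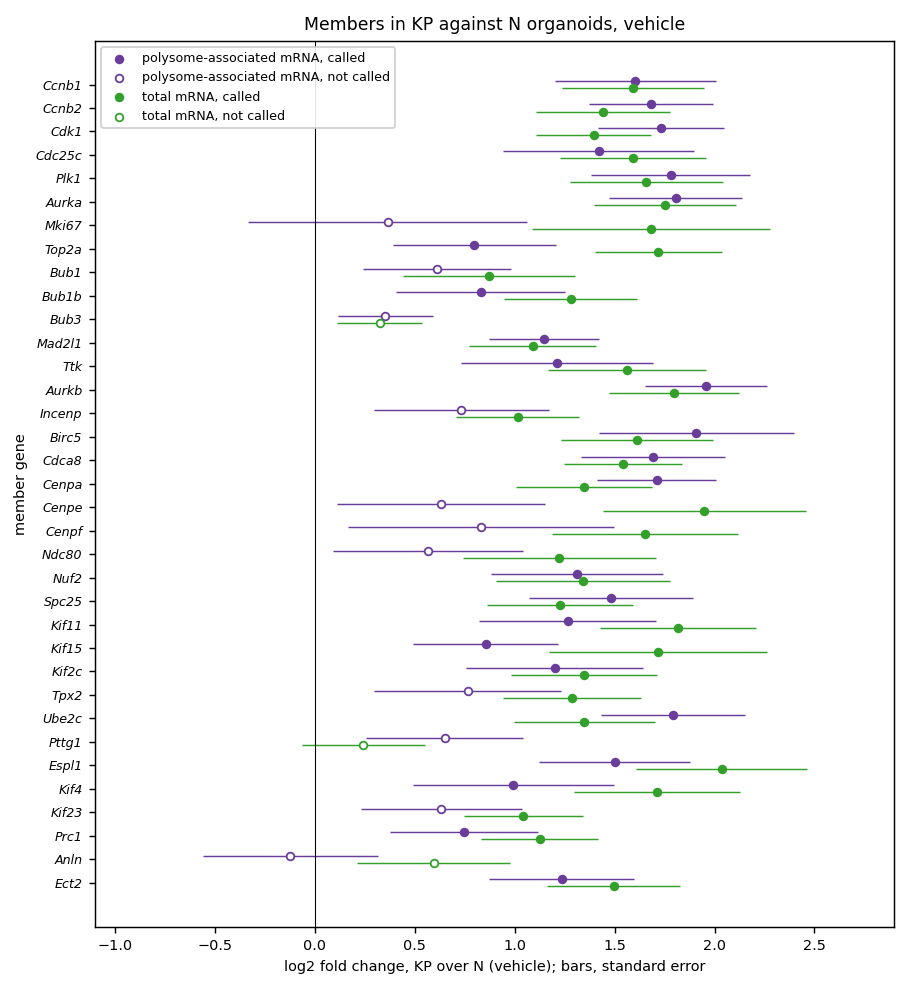
Points give each member's log2 fold change of KP against N in vehicle-treated organoids with its standard error, for polysome-associated and total mRNA, and filled points were called. In polysome-associated mRNA 34 of 35 points lie above 0 and 24 are filled, and in total mRNA all 35 lie above 0 and 32 are filled.

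With CR-31 in both types, Ccnb1 and Aurkb had the largest differences between KP and N in polysome-associated mRNA. Ccnb1 had 40.1, 47.2 and 18.4 CPM in N and 175, 76.0 and 130 CPM in KP, a log2 fold change of 1.84 ± 0.41 (edgeR adjusted p = 0.0238). Aurkb had 18.1, 18.5 and 10.1 CPM in N and 69.7, 39.9 and 57.5 CPM in KP, a log2 fold change of 1.84 ± 0.30 (adjusted p = 0.00927). The groups did not overlap for either gene, and Cdc25c (1.81 ± 0.48) and Aurka (1.80 ± 0.33) followed. Mki67 (1.23 ± 0.71), Cenpf (1.32 ± 0.67) and Pttg1 (0.51 ± 0.39) were the 3 members not called. In total mRNA Espl1 had 4.90, 6.45 and 2.51 CPM in N and 32.1, 14.6 and 17.3 CPM in KP, a log2 fold change of 2.21 ± 0.43 (adjusted p = 0.0121). Aurkb (1.90), Plk1 (1.88) and Aurka (1.86) came next, and Bub1, Ndc80, Nuf2, Kif23, Pttg1 and Anln were not called.

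By the libraries themselves, every KP library lay above every N library for 18 of 35 members in vehicle polysome-associated mRNA, against 18% of all genes tested. The count was 26 in vehicle total mRNA (15.9% of all genes), 32 in CR-31 polysome-associated mRNA (14.4%) and 27 in CR-31 total mRNA (15%). No member had every KP library below every N library in any of these.

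Of other genes of the mitotic machinery 98 were tested, in 6 lists, and most but not all were called higher in KP. In vehicle polysome-associated mRNA 60 of 98 were called higher (20.9% of all genes) and none lower, with a median log2 fold change of 0.82. In total mRNA 71 were called higher (13.1%) and none lower, with a median of 1.03, and 9 lay below 0. Of 24 further kinetochore and centromere genes 18 were called higher in the polysome pool and 21 in total mRNA, and of 15 further mitotic kinases and regulators 13 and 14 were. Of 16 genes of the anaphase-promoting complex and its partners 6 were called higher in each pool, and their median in the polysome pool was 0.32. Of 12 condensin and cohesin genes 4 and 8 were called, of 19 further spindle and cytokinesis genes 12 and 17, and of 12 regulators of G2/M transcription 7 and 5. The largest called differences in the polysome pool were those of Cdca3 (2.26), a trigger of Wee1 degradation, Spc24 (2.11) of the Ndc80 complex, Mybl2 (2.02), which encodes B-Myb, and Cdca5 (1.91), which encodes sororin. In total mRNA they were those of the kinesins Kif22 (2.01) and Kif18b (1.74), of Cdca3 (1.74) and of the kinetochore gene Kntc1 (1.72). With CR-31, 64 of the 98 were called higher in each pool (11.2% of all genes in the polysome pool and 18.9% in total mRNA), and Anapc4, Anapc10 and Nfyb were called lower in total mRNA. The largest there were Kif22 (1.79), Spc24 (1.69), the microtubule-binding Ska3 (1.69) and the kinase Melk (1.65) in the polysome pool, and Mybl2 (2.01), Spc24 (1.97), Kif22 (1.96) and Cdca3 (1.94) in total mRNA.

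The members also moved together between replicates of the same group. KP replicate 2 was the lowest of its 3 libraries for 35 of 35 members in vehicle polysome, vehicle total and CR-31 polysome mRNA, where it was the lowest for 35.4%, 37.2% and 33.5% of all genes. In CR-31 total mRNA it was the lowest for 26 members (26.2% of all genes). The summed level of the 35 members was 2414, 1278 and 2118 CPM in KP vehicle polysome replicates 1, 2 and 3. In N organoids replicate 3 was lowest for 25 to 31 members, depending on the group (27.9% to 36.7% of all genes). The N vehicle polysome sums were 844, 945 and 700 CPM, so the lowest KP library held more mitotic mRNA than the highest N library.

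The same order held in CR-31 polysome-associated mRNA, with 948, 1065 and 560 CPM in N and 2748, 1499 and 2297 CPM in KP. Without the lysates of KP replicate 2, 29 members were called higher in KP in vehicle polysome-associated mRNA, 33 in vehicle total, 31 in CR-31 polysome and 31 in CR-31 total mRNA, beside 14.9%, 8.67%, 8.98% and 17.3% of all genes. Without those of N replicate 3 the counts were 25, 29, 31 and 23, beside 26.3%, 8.25%, 16% and 13.5% of all genes. Across the 12 polysome libraries, with each organoid type centred on its own mean, a member's log2 CPM had a median Pearson correlation of 0.87 with the median of the other members. It was over 0.5 for 32 of 35 members and for 16.6% of all genes tested, and the lowest was -0.07, for Pttg1. In total mRNA the median was 0.74, and again 32 of 35 members were over 0.5 (7.71% of all genes). These correlations describe 12 libraries that share lanes and scaling with each other, and they are not a test.

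**Figure D3:**
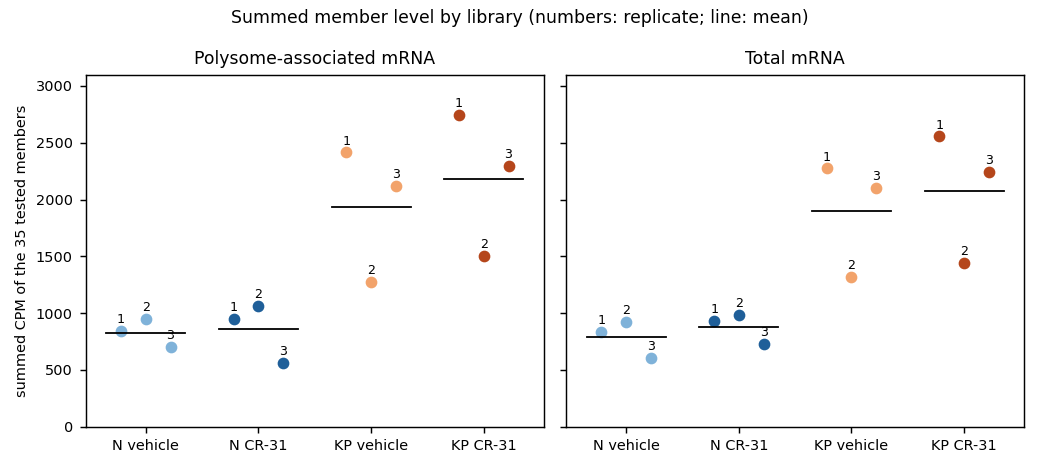
Points give the summed CPM of the 35 members in each of the 24 libraries by organoid type, treatment and mRNA pool, with the replicate number beside each point and a line at the mean of 3. The KP polysome points run from 1278 to 2748 CPM and the N polysome points from 560 to 1065 CPM, and replicate 2 is the lowest point of each KP group.

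Since the members share a promoter programme by background knowledge and moved together here, their promoters were searched for its motifs. RefSeq promoters (build GRCm38.p6, 250 bases before to 50 bases after the start) were matched by symbol for 33 of the 40 genes. A CHR was searched as TTTGAA or TTTAAA and a CCAAT box as CCAAT, each on both strands. Within 100 bases before and 50 bases after the start, a CHR was present in 26 of 33 members (78.8%), in 6.98% of the 8848 tested genes with a promoter, and in 12.9% of all 27025 genes of the promoter table. A CCAAT box was present there in 22 members (66.7%), in 26.5% of tested genes and in 24% of all genes. Both were present in 21 members (63.6%) and in 2.22% of tested genes, and the 2 matches overlapped in Cdca8 alone, by 1 base. In the whole window the shares with a CHR were 84.8% of members and 18.5% of tested genes. A match is a run of letters and does not show that a factor binds it.

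The windows around a CHR are shown for 8 members called higher in KP in vehicle polysome-associated mRNA, since they show the shared element beside unlike flanks. They are examples and not the 8 largest differences. Each is written from 5′ to 3′ on the strand of the gene, in build GRCm38.p6, with the CHR in capitals, and TTCAAA is TTTGAA read on the other strand.
Ccnb1 (chr13:100786512-100786539, minus strand, 42 bases before the start): gcggcccggggTTTAAAcctaagcccgg
Ccnb2 (chr9:70421534-70421561, minus strand, 4 bases after the start): gcggcgcggtaTTTGAAtcgcggaccgg
Cdk1 (chr10:69352911-69352938, minus strand, 15 bases before the start): accgcggcgagTTTGAAactgctggcac
Plk1 (chr7:122159395-122159422, plus strand, 29 bases before the start): cgggtttgtatTTTAAAtccccgcggcc
Top2a (chr11:99024196-99024223, minus strand, 23 bases before the start): ctagataaaggTTCAAAtgaaactaggg
Ube2c (chr2:164769889-164769916, plus strand, 29 bases before the start): gagggttgcaaTTCAAAcgcgggcggcg
Kif11 (chr19:37376352-37376379, plus strand, 19 bases before the start): cgtctccatttTTCAAAattgaggcgcg
Espl1 (chr15:102296255-102296282, plus strand, 27 bases before the start): cactagggataTTTGAAaggaggtgctg

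In all 8 the match shown lay within 50 bases of the start. Ccnb2, Cdk1, Plk1 and Top2a had further matches in their windows that are not shown. Birc5, which is not among the 8, had its only match 220 bases before the start. Ccnb1 is shown with its CCAAT boxes (capitals) as well, since both lie just upstream of its CHR.
Ccnb1 (chr13:100786570-100786596, minus strand, 99 bases before the start): aacccgcggcgCCAATgggaagagagc
Ccnb1 (chr13:100786538-100786564, minus strand, 67 bases before the start): ccacgaactggCCAATgaggagcgagc
Pttg1, Mad2l1, Nuf2 and Nusap1 had neither motif in the 300 bases of their windows. Of these, Pttg1 was not called between KP and N, whereas Mad2l1 and Nuf2 were called higher in vehicle polysome-associated mRNA. Anln, the member below 0 in that comparison, had 2 CHR matches and no CCAAT box, and Bub1 had 2 CCAAT boxes and no CHR.

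Polysome-associated mRNA was next set against total mRNA of the same lysates. Each library was scaled, so the ratio compares a gene's part of the polysome pool with its part of total mRNA. It is not the share of a gene's mRNA that carried 3 or more ribosomes. In N vehicle organoids 11 members were called higher on polysomes (8.83% of all genes) and 5 lower (6.36%). In N with CR-31 the counts were 7 higher (7.81%) and 7 lower (10.7%), in KP vehicle 6 higher (14.2%) and 5 lower (13.3%), and in KP with CR-31 15 higher (13.7%) and 6 lower (6.5%). The KP vehicle counts are 17.1% and 14.3% of the 35 members and so lie near the shares of all genes. These counts rested on single lysates. The N vehicle total of 16 was 2 without vehicle replicate 2 (1.75% of all genes), and the N CR-31 total of 14 was 4 without CR-31 replicate 1 (5.9%) and 2 without CR-31 replicate 2 (4.27%). The KP vehicle total of 11 was 0 without vehicle replicate 1 (0.481%), 0 without replicate 2 (0.525%) and 1 without replicate 3 (6.08%), and the KP CR-31 total of 21 was 3 without CR-31 replicate 1 (4.03%). Over all losses of a lysate or a replicate number, the KP CR-31 total ran from 0 to 24 (2.38% to 39.7% of all genes).

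The values lysate by lysate were steadier for a few members. The ratio of polysome-associated to total mRNA was above 1 in 12 of 12 lysates for Cenpe, Mki67 and Cenpf, a pattern that 3.44% of all genes showed. Their log2 ratios averaged 1.57 ± 0.69, 1.54 ± 0.86 and 1.29 ± 0.78 (SD over 12 lysates). In N vehicle organoids Cenpe had 5.95, 10.6 and 2.97 CPM on polysomes and 1.58, 1.25 and 1.17 CPM in total mRNA, with no overlap and a log2 fold change of 2.07 ± 0.35 (edgeR adjusted p = 0.0136). The motors Kif15 (1.57 ± 0.33) and Kif11 (1.37 ± 0.31) and Mki67 (1.71 ± 0.45) followed in that group.

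In the other direction Ccnb2, Cdk1 and Aurkb were below 1 in 12 of 12 lysates, a pattern of 2.99% of all genes, with mean log2 ratios of -0.37, -0.46 and -0.48. The SDs over the lysates were 0.11 for Ccnb2, 0.27 for Cdk1 and 0.14 for Aurkb. In N vehicle organoids Ube2c had the lowest log2 fold change of polysome-associated against total mRNA, -0.60 ± 0.19 (edgeR adjusted p = 0.105), and Aurkb had -0.58 ± 0.13 (adjusted p = 0.0275). In KP with CR-31 the largest were Mki67 at 1.78 ± 0.43, Cenpf at 1.60 ± 0.40 and Cenpe at 1.59 ± 0.33, and Aurkb (-0.42 ± 0.13) and Cdk1 (-0.41 ± 0.16) were the lowest called. Outside the members, Kif20b, a kinesin of cytokinesis, had the largest called ratio in all 4 groups, from 1.58 to 2.31 on the log2 scale.

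On the average over lysates, members with long coding sequences had higher ratios, with exceptions. The coding sequences of Mki67, Cenpf and Cenpe are 9531, 8991 and 7413 bases long, and those of Aurkb and Cdk1 1035 and 891 bases. Members with a coding length of 4000 bases or more (6 genes) had a median log2 ratio of 1.23 over the 12 lysates, those of 2000 up to 4000 bases (11 genes) 0.40, those of 1000 up to 2000 bases (9 genes) -0.31 and those under 1000 bases (9 genes) -0.08. Over all genes tested the medians of the same classes were 0.05, 0.02, -0.04 and -0.07. The Spearman correlation of coding length with the mean ratio was 0.71 across the 35 members and 0.18 across 11137 genes, as a description across genes, which are not independent replicates and share these libraries. Among the members it ranged from 0.09 in N CR-31 replicate 3 to 0.83 in 3 other N lysates, and was 0.16 in KP vehicle replicate 1. Across all genes it ranged from -0.29 in KP vehicle replicate 1 to 0.58 in N vehicle replicate 2. Espl1 was an exception, with 6354 coding bases and a mean log2 ratio of 0.01.

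**Figure D4:**
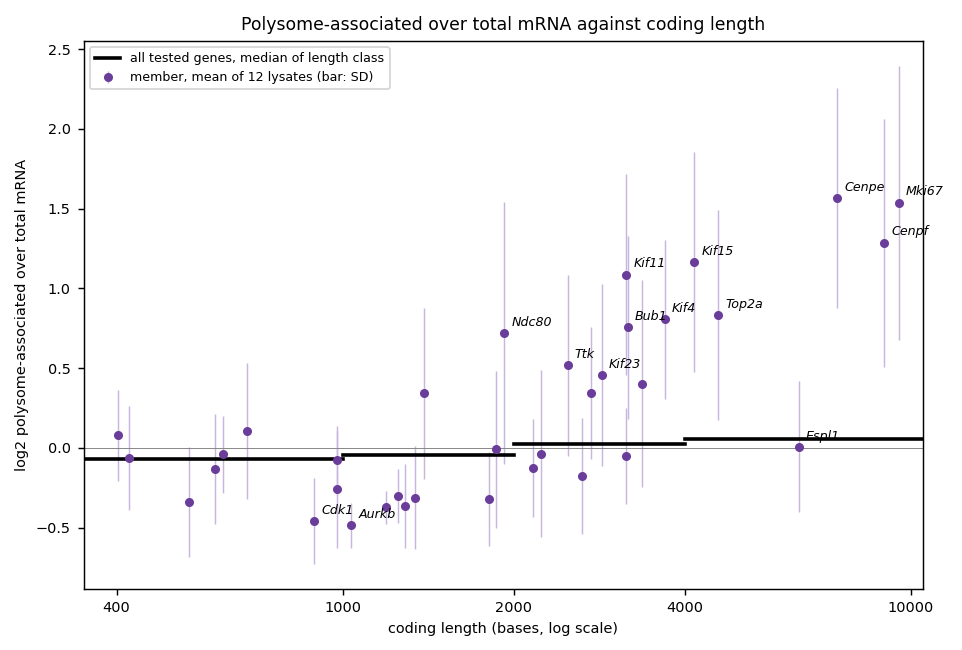
Each point is a member, with its coding length in bases on a log axis against the mean log2 ratio of polysome-associated to total mRNA over 12 lysates, bars give the SD, and black lines give the median of all tested genes in each length class. Mki67, Cenpf and Cenpe lie at the upper right between 1.29 and 1.57, Espl1 lies near 0, and Aurkb, Cdk1 and Ccnb2 lie below 0.

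The median ratio of the 35 members set 2 lysates apart. It was -0.40 in N CR-31 replicate 3 and 0.54 in KP CR-31 replicate 1, and between -0.09 and 0.28 in the other 10, while the median of all genes lay between -0.12 and 0.02 in every lysate.

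Length also separated the members in the comparison of KP with N. In vehicle polysome-associated mRNA the members' median log2 fold changes were 1.69, 1.60, 0.83 and 0.82 from the shortest to the longest class, and those of all genes 0.22, -0.07, -0.24 and -0.38. In vehicle total mRNA they were 1.35, 1.59, 1.29 and 1.72, and those of all genes -0.04, -0.08, 0.02 and 0.17. A lower value on polysomes for long coding sequences was thus a feature of all genes as well as of these. N replicate 3 stood apart in this respect. Relative to the mean of the N polysome libraries, genes of 4000 coding bases or more had a median log2 level of -0.55 in its vehicle and -0.52 in its CR-31 library, and of 0.14 to 0.41 in the other N libraries, and the 6 members of that length had -0.71 and -1.03. Without its lysates, an alternative chosen after seeing the data, the vehicle polysome medians of the members were 1.5 in both classes under 2000 bases, 0.75 in the next and 0.49 in the longest class, and those of all genes were 0.30, -0.01, -0.29 and -0.61 from the shortest to the longest. A joint edgeR fit over both pools tested translational efficiency, the change on polysomes beyond that in total mRNA. No member was called between KP and N with vehicle (0% of all genes tested), 5 had an unadjusted p under 0.05 (11.3% of all genes did), and DESeq2 called 0 members and 3.06% of all genes. Those 5, all lower in KP, were Cenpe (-1.03 ± 0.47), Top2a (-1.0 ± 0.42), Kif4 (-0.76 ± 0.33), Espl1 (-0.58 ± 0.25) and Bub1b (-0.51 ± 0.23), each with an adjusted p of 0.433 or 0.437.

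This count rested on N replicate 3. Without both of its lysates 12 members were called, 9 of them lower in KP, but 35.8% of all genes were called in the same fit, 15.8% lower. Without its vehicle lysate 7 members were called, beside 18.8% of all genes, and without its CR-31 lysate 2 were, beside 3.54%. With CR-31, no member was called in translational efficiency between KP and N (0% of all genes, DESeq2 0), and 3 had an unadjusted p under 0.05 (4.86% of all genes), Ndc80 (1.24) and Nuf2 (0.78) higher in KP and Espl1 (-0.68) lower.

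CR-31 for 1 h gave no called member in any comparison with vehicle without the replicate number in the fit. The edgeR test called 0 members and 0% of all genes in polysome-associated mRNA, total mRNA and translational efficiency, in KP, in N and for the difference between the CR-31 effects in KP and N, and DESeq2 called 0 members in each. At an unadjusted p under 0.05 there were 2 members in KP polysome-associated mRNA, Anln (1.20 ± 0.44) and Tpx2 (1.19 ± 0.47), beside 3.55% of all genes, and 0 in KP total mRNA, in either pool of N and in the difference of effects in either pool. In translational efficiency there were 2 in KP (Nuf2 and Tpx2, each 0.80, beside 5.48% of all genes), 0 in N, and 5 in the difference of effects (10.7% of all genes). These were Ndc80 (1.82), Anln (1.41), Kif23 (1.30), Tpx2 (1.29) and Prc1 (1.10), with an edgeR adjusted p of 0.419 each. Without N CR-31 replicate 2 that last comparison called 10 members, all higher, beside 9.77% of all genes called higher.

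The medians of the 35 log2 fold changes of CR-31 against vehicle were 0.29 in KP polysome-associated mRNA, 0.07 in N polysome-associated mRNA, 0.02 in KP total mRNA and 0.22 in N total mRNA. None of these fold changes was called in the fit without the block. The replicate numbers paired vehicle and CR-31 lysates, since same-numbered libraries deviated together in every pair of groups. With the replicate number as a block, edgeR called 16 members in KP polysome-associated mRNA, 15 higher and 1 lower, beside 8.3% of all genes called higher and 11.1% called lower. Scaling within the polysome pool removes any change shared by most mRNAs, so higher or lower here is relative to other polysome-associated mRNAs. The study reports a fall in nascent protein synthesis in KP organoids at this dose and time, which these values cannot show. Leaving out any replicate number of KP under the block left 0 called, with medians of 0.24 to 0.40.

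Anln and Tpx2 had the largest values of the 15. Anln had 25.7, 13.8 and 34.4 CPM in the KP vehicle polysome libraries and 65.0, 50.8 and 54.4 CPM with CR-31, so every CR-31 library was above every vehicle library, as for 3 of the 35 members and 8.94% of all genes. Its log2 fold change under the block was 1.29 ± 0.34 (edgeR adjusted p = 0.192). Tpx2 went from 47.6, 21.8 and 50.7 CPM to 119, 61.3 and 93.1 CPM, also without overlap, with 1.23 ± 0.27 (adjusted p = 0.192). Kif4 (0.90 ± 0.24), Bub1b (0.80 ± 0.17), Incenp (0.79 ± 0.24) and Mki67 (0.78 ± 0.22) followed.

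Mki67 had 51.0, 13.8 and 41.7 CPM with vehicle and 87.7, 34.4 and 48.8 CPM with CR-31 on KP polysomes, higher in each pair although the groups overlapped. The others called higher were Cdc25c, Top2a, Bub1, Ttk, Ndc80, Nuf2, Kif11, Espl1 and Kif23. Cenpa was called lower, at -0.39 ± 0.17 (edgeR adjusted p = 0.24), with 178, 102 and 133 CPM with vehicle and 132, 68.4 and 119 CPM with CR-31. Of the mitotic entry genes, Ccnb1 had 175, 76.0 and 130 CPM after CR-31 and a difference of 0.25 ± 0.22 on the log2 scale, and Cdk1 (0.04 ± 0.20), Plk1 (0.04 ± 0.20) and Aurka (-0.06 ± 0.14) were near 0 and not called. Of the 98 other mitosis genes 21 were called higher under the block, beside 8.3% of all genes, and 9 lower, beside 11.1%. With any replicate number of KP left out, at most 1 of all 11438 genes was called under the block.

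Pair by pair, 23 of 35 members were higher with CR-31 in all 3 KP polysome pairs, where 31.3% of all genes were, and 4 were lower in all 3, namely Birc5, Cenpa, Ube2c and Pttg1 (27.8% of all genes). In N polysome-associated mRNA 3 were higher in all 3 pairs (8.4% of all genes). In N total mRNA 20 were (21%) and in KP total mRNA 8 (14.2%). The members' median in N polysome pairs was 0.23 and 0.22 in replicates 1 and 2 and -0.32 in replicate 3, where Anln had -1.27 and Tpx2 -0.77. Under the block N polysome-associated mRNA had 0 called members, 3 at an unadjusted p under 0.05 (3.66% of all genes), and without replicate 3 it had 15 called, 13 higher, among 1720 of all genes. Whether CR-31 moved the members differently in KP and N was tested with the block too, and edgeR called 0, with 7 at an unadjusted p under 0.05 (14.2% of all genes) and a median difference of 0.39.

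By pair, the members' median on KP polysomes was 0.32, 0.44 and 0.18 in replicates 1, 2 and 3, with 28, 26 and 26 of 35 above 0. Replicates 1 and 3 had both of their libraries in 1 lane, so these pairs compare CR-31 with vehicle within a lane. Pooled by lane without the pairing, the values differed in sign. In the lane that held CR-31 replicate 1 and vehicle replicates 1 and 2, the members' median log2 difference was 0.85, with 34 of 35 above 0. In the lane that held CR-31 replicates 2 and 3 and vehicle replicate 3 it was -0.14, with 12 of 35 above 0. These lane values do not keep the pairs, as each lane holds 3 lysates of KP and the low replicate 2 had its vehicle library in the first lane and its CR-31 library in the second.

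By coding length, the members' medians of CR-31 against vehicle in KP polysome-associated mRNA were -0.03, 0.25, 0.655 and 0.36 from the shortest to the longest class, and those of all genes -0.18, -0.005, 0.14 and 0.22. The 4 members that were lower in all 3 pairs have coding sequences of 402 to 597 bases. In all genes, then, longer coding sequences also lay higher on KP polysomes with CR-31.

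**Figure D5:**
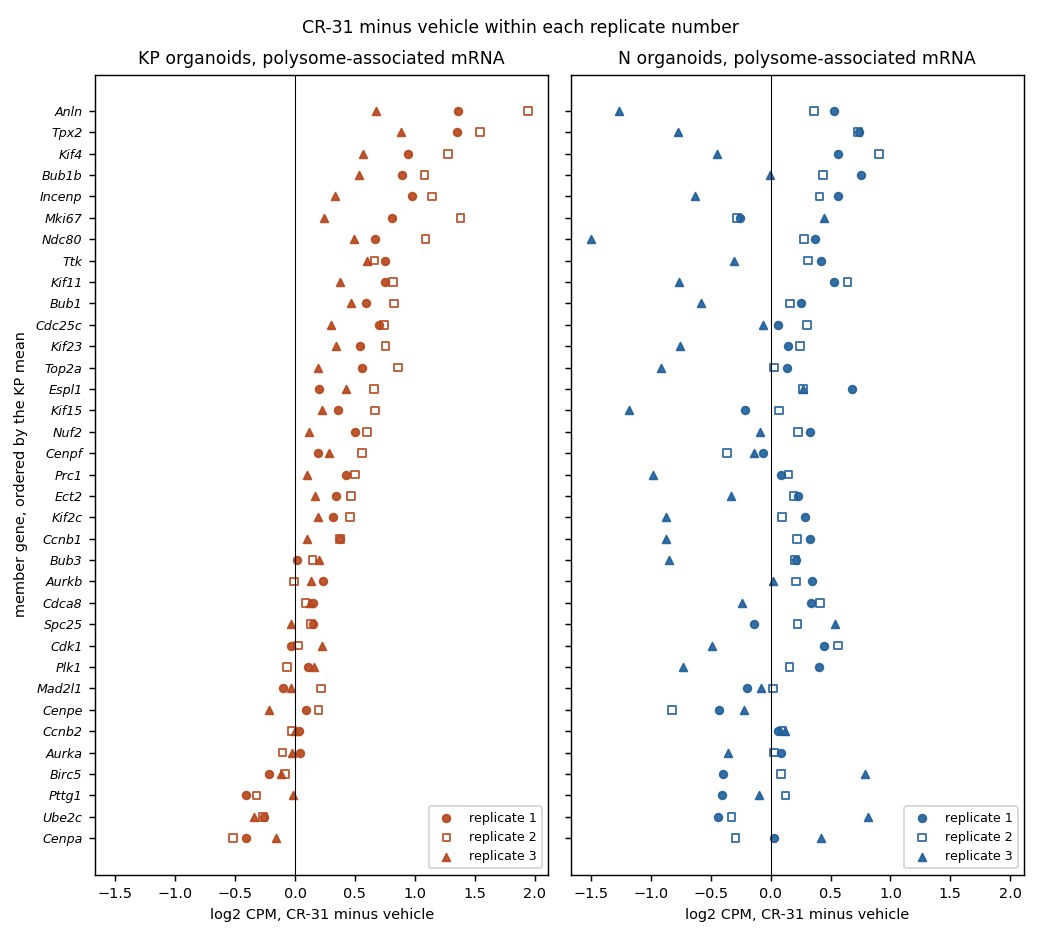
Points give the log2 difference of CR-31 minus vehicle for each member in each of the 3 same-numbered polysome pairs of KP and N organoids. In KP 23 members have all 3 points above 0 and 4 have all 3 below, and in N many points of replicate 3 lie far to the left, among them those of Anln (-1.27) and Tpx2 (-0.77).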

How the data were processed

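Organoid lysates were split into total mRNA and mRNA bound by 3 or more ribosomes on sucrose gradients. Per the labels and the study's methods, paired-end libraries were aligned with HISAT2, reads with several mappings were discarded, and reads in coding genes were counted over full transcripts. The submitters' processing notes name hg38 as the build although the entries are mouse RefSeq genes, and nothing in the files settled this. The authors deposited raw read counts per entry, which were tested here, and RPKM values per entry (reads scaled by transcript length and depth), which were read only as levels. CPM here is a count divided by the library's total over the tested genes, scaled by TMM within each RNA type.

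Members were matched by symbol, and the members and gene lists were chosen with earlier results of these data known. All members could be named. Values per library were given for Mki67, Top2a, Ccnb1, Cdk1, Plk1, Aurka and Foxm1, for up to 4 called members with the largest change in each direction of a comparison, and for members against the direction of most others. Of the other mitosis genes up to 4 were named per comparison.

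Entries listing several symbols (1042) were left out, and a gene needed a count of at least 1 in every library. Counts of the 12 libraries of a pool were fitted with edgeR 4.0.16 (glmQLFit, glmQLFTest, TMM, R 4.3.3) without covariates. Translational efficiency and the ratio of polysome-associated to total mRNA were fitted over all 24 libraries with the lysate as a block, in place of Anota2seq, which the study used. p-values were adjusted by Benjamini-Hochberg over all 11438 genes and called under 0.25. DESeq2 1.42.0, other scalings, filters and thresholds, a replicate block, lane as a term, a regression on total mRNA, and the loss of each lysate or replicate number were alternatives. The code was tested on simulated data.

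Same-numbered vehicle and CR-31 libraries of an organoid type deviated together from their group means (correlations of 0.455 to 0.892), and every such pair was above 0.1, so these numbers pair the lysates. Between N and KP the correlations were -0.168 to 0.279, so those numbers do not. Log2 ratios of single lysates used a prior count of 0.5. Coding lengths came from a GRCm38 gene annotation and were matched for 35 tested members and 11137 tested genes, and promoters came from RefSeq.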

Additional observations from a re-analysis of the deposited data

Results flagged for a closer look

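Cenpf, which encodes a large protein of the outer kinetochore, went in opposite directions with CR-31 in every pair of polysome libraries. The log2 difference of CR-31 minus vehicle was 0.19, 0.56 and 0.29 in the 3 KP pairs, with a mean of 0.345, and -0.07, -0.36 and -0.14 in the 3 N pairs, with a mean of -0.189. The means differ by 0.534. In the edgeR fit without the replicate block, which does not keep the pairs, the difference of effects was 0.49 ± 0.94. Its unadjusted p was 0.611 and its adjusted p 0.999, so it did not pass the threshold. With the block, Cenpf had 0.31 ± 0.14 in KP (edgeR adjusted p = 0.264) and -0.18 ± 0.15 in N (adjusted p = 0.95), and neither was called. No member was called for the difference of effects with the block.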

How the results depend on the processing

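Under the alternatives, 491 counts of called members stayed within 1.5 times the reported count, 10 rose past that and 28 fell below it. Of the members' median log2 fold changes, 481 shifted by less than their SD between replicates and 22 by more. A further 7 changed sign in a comparison with called members. For single members 3911 values kept their direction and side of the threshold, 78 gained a call, 225 lost one and 6 turned. At an adjusted p of 0.05, the called members of KP against N were 14 in vehicle polysome, 14 in CR-31 polysome and 15 in CR-31 total mRNA (15.2%, 6.02% and 10.6% of all genes), and those of polysome-associated against total mRNA 6 in N vehicle, 1 in N CR-31, 0 in KP vehicle and 10 in KP CR-31 (3.58%, 1.18%, 1.12% and 7.13%). With the groups compared fitted alone the latter were 9 in N vehicle, 3 in N CR-31 and 26 in KP vehicle, beside 5.04%, 5.09% and 59.4% of all genes. Upper-quartile scaling moved the members' median ratio in KP vehicle to -0.002, below 0, and moved the median of all genes by at most 0.094 in size. The cause of these shifts was not tested.

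The replicate block raised CR-31 against vehicle in KP polysome-associated mRNA to 16 called members. The comparisons of KP with N had 33, 34, 35 and 34 called members with the block in the order vehicle polysome, vehicle total, CR-31 polysome and CR-31 total, beside 34%, 27.7%, 28.7% and 31.7% of all genes called higher. That block lies within each organoid type and so takes out the spread between replicates on which KP against N rests, and these counts are no added support. Regressing the polysome values on those of total mRNA called 0 members in every comparison of translational efficiency. With the block, an alternative chosen after seeing the data, it called 22 members between KP and N with vehicle, 23 with CR-31 and 7 for CR-31 in KP, beside 54.4%, 32.6% and 13.8% of all genes, and the cause was not tested. With lane as a term, CR-31 against vehicle had 0 called members in each comparison.

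Leaving out a lysate or a replicate number gave 17 to 29 called members for KP against N in vehicle polysome-associated mRNA, 14 to 34 in CR-31 polysome, 27 to 33 in vehicle total and 22 to 31 in CR-31 total mRNA, while the share of all genes called ran from 24.6% to 52.6%, 8.03% to 34.7%, 14.1% to 37.7% and 15.7% to 46.1%. It gave 0 to 12 for translational efficiency between KP and N with vehicle (0% to 35.8%) and 0 to 10 for its CR-31 effect in KP minus N (0% to 16.6%). For polysome-associated against total mRNA it gave 2 to 22 in N vehicle (1.75% to 35.7%), 2 to 16 in N CR-31 (3.31% to 30.2%), 0 to 18 in KP vehicle (0% to 47.8%) and 0 to 24 in KP CR-31 (2.38% to 39.7%). The members' median ratio ran from -0.183 to 0.072 in N CR-31, turning negative without CR-31 replicate 1 (-0.13) or 2 (-0.18), and from -0.009 to 0.354 in KP CR-31, turning negative without CR-31 replicate 1. Mki67 in vehicle polysome-associated mRNA ran from -0.10 to 1.09, turning negative without N replicate 3, Anln from -0.46 to 0.17, turning positive without KP replicate 2, and Ndc80 in CR-31 total mRNA from -0.15 to 0.51, turning negative without KP replicate 3. None of these 3 was called in those comparisons. With 3 replicates per group, the spread between lysates and not the depth of the libraries set the precision.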
